A study of Oryctolagus cuniculus with 16 samples.

Results

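The enzymes of glycolysis and of the tricarboxylic acid (TCA) cycle, with the enzymes that govern the fate of pyruvate between them, were followed through the rabbit basilar artery wall. Genes were taken by symbol, from the hexokinases to the lactate and malate dehydrogenases, where at least 1 library held a count. Of 13788 named genes, 42 matched by symbol and 40 of these had a count, of which 21 belong to glycolysis, 5 to the pyruvate node and 14 to the TCA cycle. PFKFB1 and OGDHL had no count in any library. PFKL, PGAM1, ENO1, PDHB, PDK1 and FH are not analysed here.

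The animals were female New Zealand white rabbits. Rabbits 5 and 6 had both common carotid arteries ligated, an operation that raises flow through the basilar artery (BA), and rabbits 3 and 4 had sham surgery and kept normal flow. At 24 h after surgery, intima and media were cut by laser microdissection from the straight BA and from the basilar terminus (BT), the bifurcation at its end, with strips from several sections pooled for each sample. RNA-seq of these 4 tissues in 4 rabbits gave 16 libraries and 2 animals in each group. The 4 tissues came from the same 4 rabbits, so a change seen in several tissues is not a repeat in further animals.

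Glycolysis splits glucose into pyruvate in the cytosol. Hexokinase traps glucose, phosphofructokinase commits it to the pathway, and the steps from glyceraldehyde-3-phosphate dehydrogenase onward return ATP. Lactate dehydrogenase turns pyruvate into lactate, whereas pyruvate dehydrogenase, which is switched off by the PDK kinases, passes it to the TCA cycle in mitochondria. Endothelial cells are known to draw much of their ATP from glycolysis, and vascular smooth muscle cells (VSMCs) make lactate even in the presence of oxygen.

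Counts in named genes totalled 5211886 to 17686105 per library in the intima and 2154863 to 11219236 in the media. The pathway genes took 0.471 to 0.941% of these counts in the intima and 0.598 to 0.805% in the media, and 34 to 39 of the 40 genes were detected in a library. Values below are CPM, which are counts brought to the same library size with TMM factors. They are not corrected for gene length, so levels are compared between libraries and never between genes. The layers carried their labelled markers: PECAM1, an endothelial adhesion molecule, was at 179 to 812 CPM in the intima and 2.92 to 148 CPM in the media. ACTA2, smooth muscle actin, was at 10255 to 71630 CPM in the intima against 63200 to 113194 CPM in the media, so the intima libraries also held VSMC transcripts. In bulk tissue, fewer cells of a type and less RNA per cell cannot be told apart.

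Ligated and sham libraries were compared in each tissue to ask how the pathway differed under raised flow. LDHA in the BT media was the only pathway gene called in these 4 comparisons, at q under 0.05 by edgeR's quasi-likelihood test (1 of 37 tested, against 2.35% of all genes tested there). No pathway gene was called in the BA media, where 0.807% of all genes were, nor in the BA intima or the BT intima, where 0% of all genes were. DESeq2 called 0 of 37 in BA intima and 4 of 38 in BT intima, where it called 1.36% and 6.61% of all genes. It called 4 of 37 in BA media and 5 of 37 in BT media, beside 5.77% and 6.76% of all genes.

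At an unadjusted p under 0.05, edgeR passed 2 pathway genes in BA intima and 10 in BT intima, where 5.95% and 11.6% of all genes passed. It passed 6 in BA media and 12 in BT media, where 13.6% and 16% of all genes passed. The direction was mostly upward: 2 of 2 and 8 of 10 were higher after ligation in the intima (BA before BT), and 6 of 6 and 10 of 12 in the media. Pathway genes had median log2 fold changes (ligated over sham) of 0.28 and 0.31 in the intima and 0.03 and 0.51 in the media, beside -0.10, -0.13, -0.15 and 0.03 over all genes tested. The BT intima median was 0.93 without rabbit 3, 0.24 without rabbit 4, 0.50 without rabbit 5 and 0.51 without rabbit 6. Leaving out each rabbit in turn moved the median to between 0.07 (without rabbit 6) and 0.47 (without rabbit 5) in the BA intima, to between 0.01 (without rabbit 6) and 0.23 (without rabbit 4) in the BA media, and to between 0.35 (without rabbit 5) and 0.69 (without rabbit 4) in the BT media. With library size alone as the scale, the median of all genes moved to -0.29 (BA) and 0.18 (BT) in the media, with the pathway genes at -0.10 and 0.64.

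**Figure D1:**
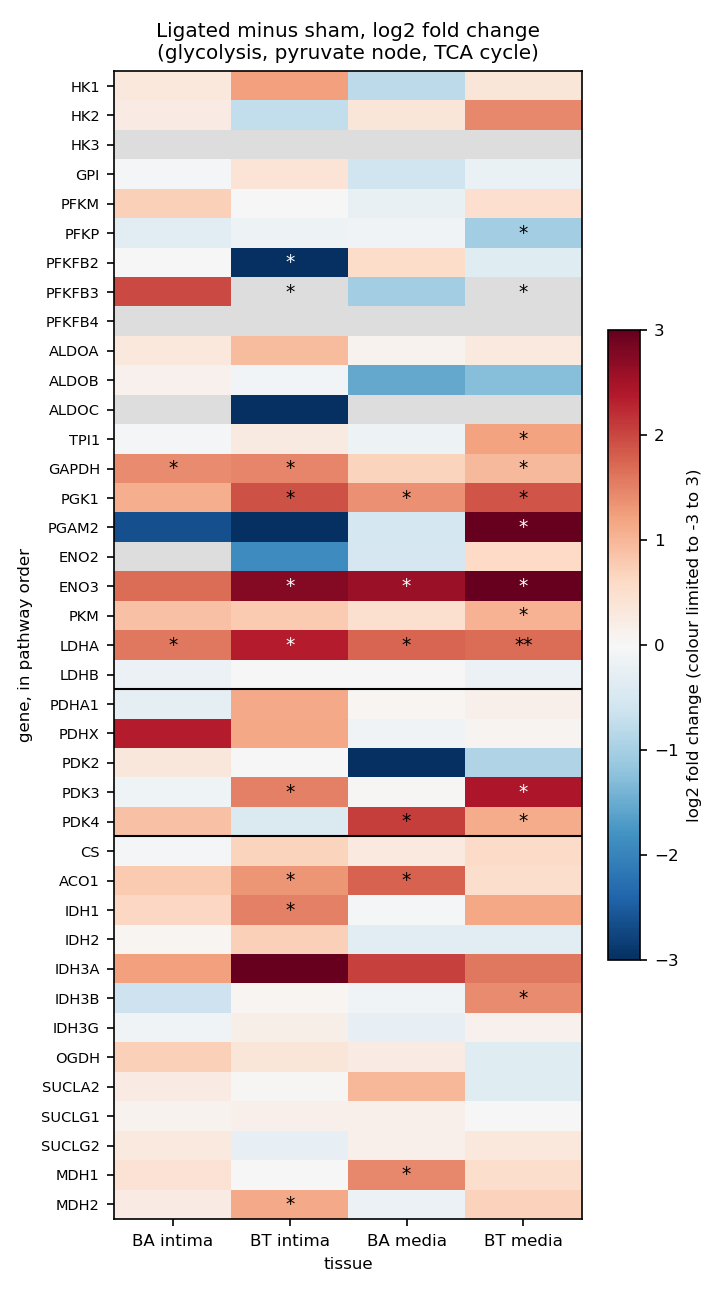
Log2 fold change (ligated minus sham) of the pathway genes reported here, in pathway order from top to bottom, in the 4 tissues, with colour limited to -3 to 3 and black lines between glycolysis, the pyruvate node and the TCA cycle. Grey marks a gene that was not tested or had no count in 1 group, 1 asterisk an unadjusted p under 0.05 and 2 asterisks q under 0.05 (edgeR); the red band runs through GAPDH, PGK1, ENO3 and LDHA, and 2 asterisks stand only at LDHA in the BT media.

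The separation of the groups showed the same lean. In the BA intima, 8 of 37 pathway genes had both ligated values above both sham values, against 15.4% of all genes, and 0 had both below, against 20%. The BT intima gave 18 of 38 above (20.4% of all genes) and 3 below (25.6%). The BA media gave 11 of 37 above (21%) and 2 below (26%), and the BT media 16 of 37 above (25.4%) and 4 below (23.1%). The 37 pathway genes tested in every tissue included 6 with ligated values above sham in each of the 4 tissues, namely GAPDH, PGK1, ENO3, LDHA, ACO1 and IDH3A, where 3.68% of all 7930 such genes did so. None was below sham in all 4, a pattern held by 3.11% of all genes. The same 6 genes were found with DESeq2's size factors and with library size alone.

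**Figure D2:**
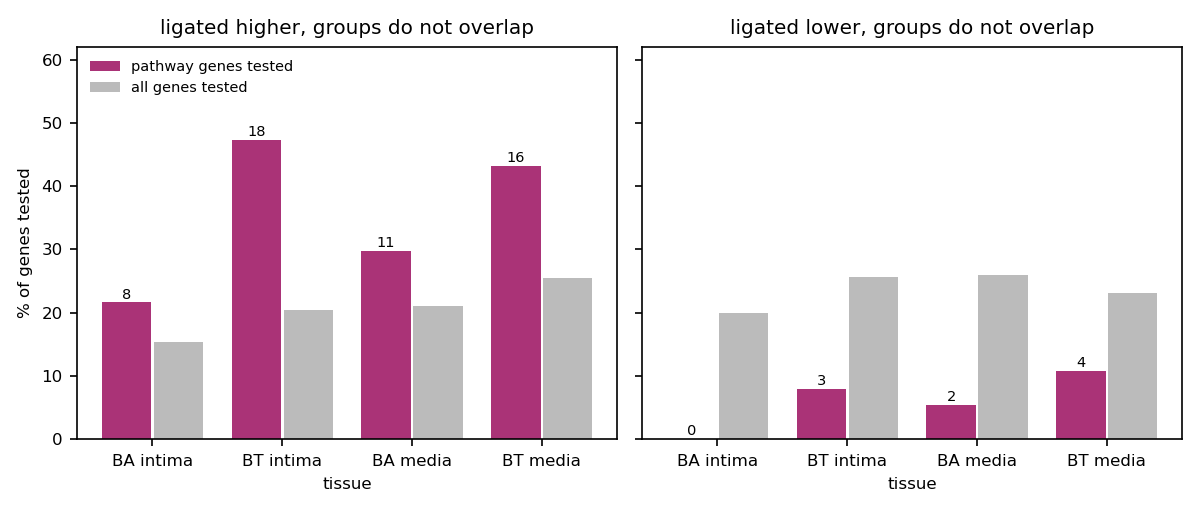
Share of tested genes whose 2 ligated values lie entirely above (left) or below (right) the 2 sham values, in each tissue, for the pathway genes (purple, with their number above the bar) and for all genes tested (grey). The purple bars exceed the grey on the left in each tissue and fall short of them on the right.

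Cell type markers also moved with ligation. The sums of the 11 measured endothelial markers overlapped in each tissue, at 1243 to 5585 CPM in sham and 3166 to 3805 CPM in ligated BT intima. By gene, 6 of 11 tested lay wholly above sham and 1 below in the BT intima, beside 20.4% and 25.6% of all genes. The BA intima had 4 of 10 above and 0 below (15.4% and 20%). None of these markers was called by edgeR with ligation. The 10 measured leptomeningeal and fibroblast markers summed to 23713 to 28143 CPM in sham and 5633 to 5779 CPM in ligated BA media, and to 12518 to 14976 and 5827 to 7892 CPM in the BT media. The sums in the intima were 2783 to 10350 and 885 to 3652 CPM at the BA and 4036 to 8960 and 705 to 1348 CPM at the BT. SLC22A6 had no count in any ligated intima library. In the BA media edgeR called DCN, COL3A1 and APOD lower and ALDH1A2 higher, where 0.807% of all genes were called in either direction. ALDH1A2 thus went against the sum (log2 fold change 2.47, SE 0.37, edgeR q = 0.0311). COL3A1 was also called lower in the BT media (q = 0.0253), where 2.35% of all genes were called. The 10 leukocyte markers summed to 315 to 390 CPM in sham and 1902 to 2708 CPM in ligated BA intima, mostly through S100A9, a neutrophil and monocyte protein, while PTPRC, the common leukocyte antigen, had no count in either ligated BA intima library. The leukocyte sums were 258 to 592 and 783 to 993 CPM in the BT intima, and 46.2 to 74.2 and 178 to 450 CPM in the BT media, whereas those of the BA media overlapped. By gene, 6 of 9 leukocyte markers tested lay wholly below sham in the BT intima and 1 above, beside 25.6% and 20.4% of all genes. In the BT media 0 of 8 lay below and 3 above (23.1% and 25.4%). S100A9 was called higher there (log2 fold change 7.38, SE 1.01, edgeR q = 0.00384). Brain markers summed to at most 25.7 CPM anywhere, and AQP4, an astrocyte channel, was at 0 in all 16 libraries. The 10 measured VSMC markers summed to 117026 to 119260 CPM in sham and 141128 to 159349 CPM in ligated BA media, to 106522 to 141802 and 98448 to 105369 CPM in the BT media, and overlapped in the intima. By gene, 5 of the 10 lay wholly below sham and 3 above in the BA media, beside 26% and 21% of all genes. In the BT media 6 lay below and 1 above (23.1% and 25.4%). In the intima 4 lay below at the BA (20%) and 2 at the BT (25.6%), and 0 above (15.4% and 20.4%). MYH11 and LMOD1, of the contractile apparatus, fell in the BT media (edgeR q = 0.0221 and 0.0438), and MYH11 lay below sham in each tissue. The part of these cells in the pathway values was not tested.

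LDHA, the lactate dehydrogenase subunit that favours lactate formation, showed the clearest difference of the pathway. In the BT media it stood at 205 and 219.7 CPM in sham and 748 and 601 CPM in ligated rabbits, and it rose 3.17-fold (log2 fold change 1.68, SE 0.31, edgeR q = 0.0160). The BA media held 135 and 126 CPM in sham against 444 and 431 CPM in ligated rabbits, with a log2 fold change of 1.76 (SE 0.32, edgeR q = 0.0522). The 4 media values of each flow state therefore lay far apart from those of the other at both locations. The call in the BT media was lost without rabbit 5 (q = 0.0954) or rabbit 6 (q = 0.0736), and in a fit over all 16 libraries (q = 0.173).

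In the BT intima LDHA was at 187 and 169.7 CPM in sham and 1219 and 589.8 CPM after ligation (log2 fold change 2.35, SE 0.50, edgeR q = 0.265). The BA intima gave 116 and 184 CPM against 239 and 668 CPM (1.59, SE 0.57, q = 0.756). Ligated libraries were again above sham, with a wider spread between the 2 ligated rabbits than in the media. The BT intima value was called by DESeq2 (q = 0.000384), and by edgeR in the 16-library fit (q = 0.0386) and in its own 4 libraries when every gene with a count was tested (q = 0.00968).

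LDHB, the partner subunit that favours the return of lactate to pyruvate, overlapped between groups in every tissue, with log2 fold changes of -0.18 to 0.01. Its values ran from 561 to 1545 CPM over the 16 libraries. The ratio of the subunits needs no scaling between libraries. LDHA took 8.52 to 23.2% of the counts of both genes in the 8 sham libraries (median 12.4%) and 23.6 to 53.5% in the 8 ligated libraries (median 36.6%). The highest sham library, BT intima of rabbit 4, lay just under the lowest ligated library, BA media of rabbit 6. The count ratio of LDHA to LDHB was 3.11 times as high in ligated as in sham BA intima and 4.19 times in BT intima. For BA media the factor was 3.404, and for BT media 3.68. Averaged over its 4 tissues, the log2 ratio was -3.06 and -2.39 in the sham rabbits and -0.86 and -0.91 in the ligated rabbits. With 2 rabbits against 2 the smallest p that an exact permutation test allows is 0.333.

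**Figure D3:**
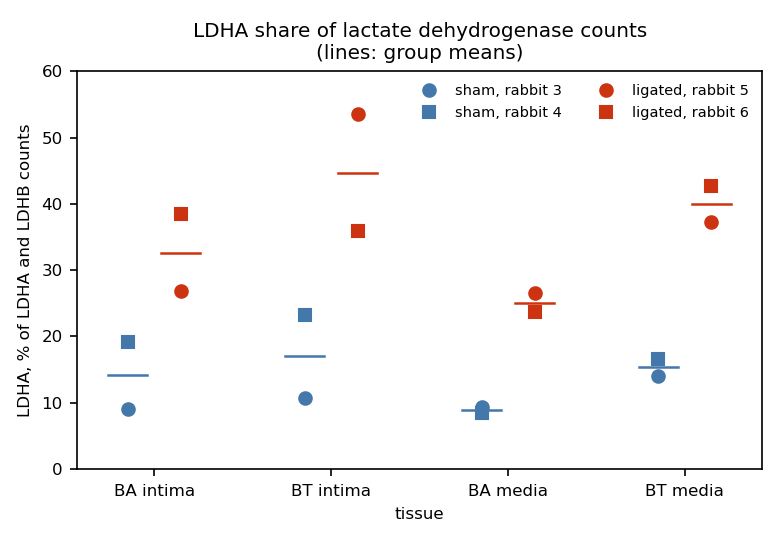
LDHA counts as a percentage of LDHA and LDHB counts in each library, by tissue, for sham (blue) and ligated (red) rabbits, with lines at group means. The sham libraries lie between 8.52 and 23.2% and the ligated between 23.6 and 53.5%.

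The steps below the splitting of fructose bisphosphate carried most other upward differences of glycolysis. GAPDH, the first oxidation of the pathway, was at 83.8 and 103 CPM in sham and 212 and 285 CPM in ligated BA intima, and at 158 and 117 against 346 and 414 CPM in the BT intima. In the media it was at 104 and 119 against 178 and 169.6 CPM at the BA and at 112 and 158 against 263 and 262 CPM at the BT. All 8 ligated values stood above all 8 sham values, irrespective of tissue. The log2 fold changes were 1.41, 1.47, 0.66 and 0.97 (edgeR q = 0.734, 0.287, 0.451 and 0.183).

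PGK1, which makes the first ATP of the pathway, was similarly placed. Sham and ligated values were 48.4 and 24.9 against 64.5 and 92.9 CPM in the BA intima, and 36.9 and 13.2 against 91.3 and 99.0 CPM in the BT intima. The media held 51.8 and 33.5 against 103 and 116 CPM at the BA, and 32.5 and 17.7 against 95.1 and 87.4 CPM at the BT. As with GAPDH, no sham value reached the lowest ligated value of any tissue. In the BT media the log2 fold change was 1.88 (SE 0.49, edgeR q = 0.0716).

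ENO3, the muscle enolase, was low in sham tissue, at 0.818 to 11.6 CPM (5 to 155 counts), and at 18.5 to 36.2 CPM in ligated tissue. Its log2 fold changes were 1.68 and 2.74 in the intima and 2.58 and 3.06 in the media (BA before BT), with SE from 0.88 to 1.12 and edgeR q from 0.102 to 0.861. ENO2, the neuronal enolase, was at 0 to 15.6 CPM and overlapped in each tissue. For PGAM2, the muscle phosphoglycerate mutase, the locations and layers went separate ways: BT intima values were 29.1 and 4.83 CPM in sham and 0 and 3.79 CPM after ligation, and BT media values 0 and 2.42 against 6.54 and 19.6 CPM.

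**Figure D4:**
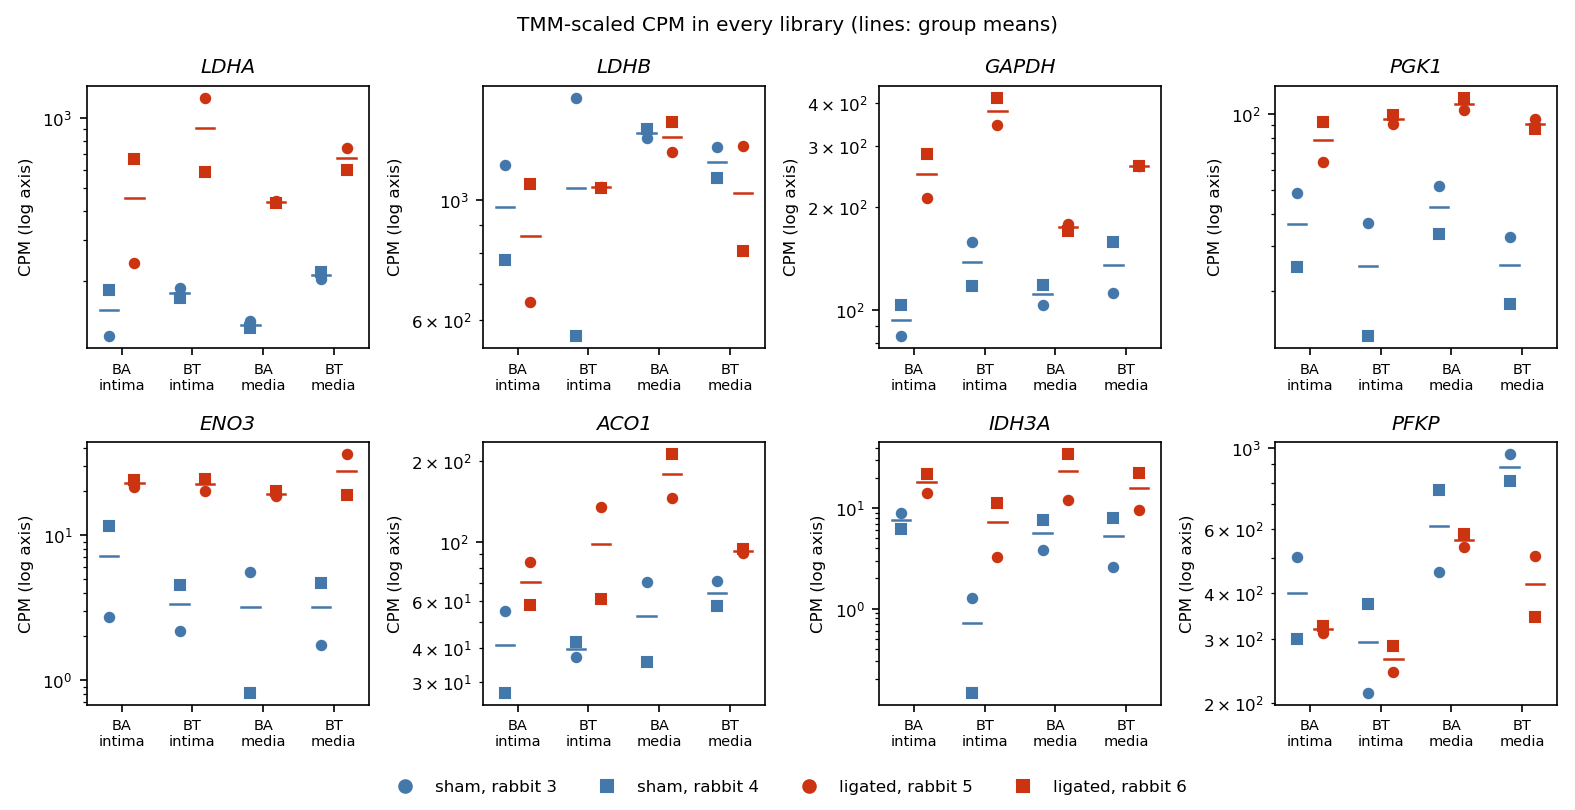
CPM (log axis) of 8 pathway genes in each of the 16 libraries, by tissue, for sham (blue) and ligated (red) rabbits, with lines at group means and symbols for the rabbits. Ligated values lie above sham in every tissue for LDHA, GAPDH, PGK1, ENO3, ACO1 and IDH3A, overlap for LDHB, and lie below sham for PFKP in the BT media.

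TPI1 and PKM separated in the BT media. TPI1, which interconverts the triose phosphates, was at 105 and 88.1 CPM in sham and 241 and 204 CPM in ligated BT media (log2 fold change 1.22, SE 0.35, edgeR q = 0.0984), and overlapped in the other 3 tissues. PKM, which makes pyruvate, was at 123.2 and 321 CPM against 517 and 396 CPM (1.04, SE 0.42, q = 0.243), and also lay above sham in the BT intima, with 291 and 246 against 400.2 and 531 CPM. ALDOA, the main aldolase, was above sham at the BT only, with 903 and 938 against 1509.6 and 2021 CPM in the intima and 1195 and 1363 against 1481 and 1627 CPM in the media. Neither ALDOA difference passed the test (q = 0.436 and 0.659).

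The upper steps, from hexokinase to phosphofructokinase, showed no common lean. HK1 overlapped in 3 tissues and was at 40.1 and 51.2 CPM in sham and 70.7 and 145 CPM in ligated BT intima. HK2, the regulated hexokinase, was at 7.84 and 9.19 CPM against 25.2 and 20.9 CPM in the BT media (log2 fold change 1.44, SE 0.75, edgeR q = 0.377) and overlapped elsewhere. GPI, which isomerises glucose-6-phosphate, overlapped in all 4 tissues. HK3 had 4 and 5 counts in the sham BT intima and none elsewhere.

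PFKP, the platelet-type phosphofructokinase, was the clearest gene on the low side. In the BT media it was at 959.5 and 809 CPM in sham and 504 and 343 CPM in ligated rabbits (log2 fold change -1.05, SE 0.32, edgeR q = 0.115), and the groups were well apart. DESeq2 called it there (q = 0.0131). In the other 3 tissues the groups overlapped, with log2 fold changes of -0.34 to -0.11. PFKM, the muscle type, overlapped in all 4 tissues.

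PFKFB2 and PFKFB3 make and break the activator of phosphofructokinase. PFKFB2 was at 22.3 and 12.7 CPM in sham and 1.47 and 2.64 CPM in ligated BT intima (log2 fold change -3.09, SE 1.05, edgeR q = 0.349). PFKFB3 had 145 and 3 counts in sham BT intima and 0 in both ligated libraries, and 4 and 39 counts against 0 and 0 in the BT media. Set against 3 counts in each ligated library, these differences are bounded at -4.34 and -2.54 on the log2 scale. In the BA intima PFKFB3 leaned the other way, with 32 and 4 counts in sham and 52 and 17 in ligated libraries. Sham BT intima of rabbit 3 had the highest count of several low genes of the pathway, with 145 of PFKFB3, 160 of ALDOC, 230 of ENO2 and 430 of PGAM2.

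At the pyruvate node, 0 of 5 genes were called in any tissue by edgeR, and 0, 1, 1 and 2 had an unadjusted p under 0.05 in the intima and then the media, BA before BT. PDK4, which rises in fasting and shuts pyruvate out of the TCA cycle, was at 22.5 and 11.1 CPM in sham and 83.3 and 59.2 CPM in ligated BA media (log2 fold change 2.08, SE 0.57, edgeR q = 0.161). In the intima the 2 ligated rabbits stood far apart, with rabbit 5 at 3.62 CPM at the BA and 36.2 CPM at the BT and rabbit 6 at 245 and 253 CPM. The sham rabbits lay at 87.7 and 45.9 CPM at the BA and at 268 and 122 CPM at the BT, so the groups overlapped. PDK3 was at 13.3 and 12.4 against 38.9 and 34.3 CPM in the BT intima and at 6.97 and 1.13 against 24.0 and 18.5 CPM in the BT media (q = 0.403 and 0.256). PDK2 had at most 67 counts in a library. PDHA1, the catalytic subunit of pyruvate dehydrogenase, and PDHX, its core binding protein, were higher without overlap after ligation in the BT intima.

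In the TCA cycle, 8 of 14 genes had ligated values wholly above sham in the BT intima, beside 20.4% of all genes. The BA intima had 2 (15.4%), the BT media 6 (25.4%) and the BA media 5 (21%). Wholly below sham lay 0 in BA and BT intima (20% and 25.6%), 1 in BT media (23.1%) and 2 in BA media (26%). ACO1 and IDH3A were the 2 that lay above sham everywhere. ACO1 is the cytosolic aconitase that doubles as an iron sensor, and IDH3A the catalytic subunit of the NAD-dependent isocitrate dehydrogenase. ACO1 was at 70.5 and 35.5 CPM in sham and 146 and 212 CPM in ligated BA media (log2 fold change 1.77, SE 0.47, edgeR q = 0.146). IDH3A was at 3.86 and 7.52 against 12.1 and 34.3 CPM there (2.06, SE 0.91, q = 0.368). In the BT intima the 2 sham libraries had 19 and 1 counts of IDH3A and the ligated 38 and 137.

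MDH1, the cytosolic malate dehydrogenase of the malate-aspartate shuttle, was at 645 and 393 CPM in sham and 1302 and 1487 CPM in ligated BA media (log2 fold change 1.44, SE 0.33, edgeR q = 0.1003). Its sham values in the intima spread from 266 to 1015 CPM and enclosed the ligated values at the BT. MDH2, the mitochondrial form, separated at the BT, with 146 and 181 against 366 and 348 CPM in the intima (1.13, SE 0.38, q = 0.347) and 171 and 198 against 256 and 335 CPM in the media. DESeq2 called LDHA, MDH1, ACO1 and PDK4 in the BA media.

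The other isocitrate dehydrogenases did not move as a block. IDH1, the cytosolic enzyme, was at 26.7 and 19.9 against 42.8 and 91.7 CPM in the BT intima (log2 fold change 1.52, SE 0.57, edgeR q = 0.392). IDH3B, a regulatory subunit, was at 33.7 and 32.6 against 66.7 and 109 CPM in the BT media (1.42, SE 0.46, q = 0.150). IDH2, the mitochondrial NADP enzyme, lay below sham in the media, with 699 and 705 against 504 and 612 CPM at the BA and 654 and 736 against 582 and 533 CPM at the BT. In the BT intima IDH2 lay above sham.

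Whether the difference with ligation itself differed between tissues was tested as an interaction. Between BT and BA, 0 pathway genes were called in the intima (0% of all genes tested) and 0 in the media (0.0213%). Between media and intima, 0 were called at the BA (0%) and 0 at the BT (0%). DESeq2 called 0 in each of the 4. At an unadjusted p under 0.05, 1 gene passed between locations in the intima (PFKFB3, background 3.12%) and 2 in the media (TPI1 and IDH3B, 6.43%), while 0 passed between layers at the BA (2.65%) and 1 at the BT (PGAM2, 5.92%). With rabbit as a block, 10 of 37 passed between locations in the media, against 9.07% of all genes, and 0 had q under 0.05. MDH1 had the smallest p of these 10, with a smaller difference at the BT than at the BA (-0.94, SE 0.30, edgeR's quasi-likelihood q = 0.195).

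For LDHA the interaction terms were 0.74 (SE 0.78) between locations in the intima, -0.09 (SE 0.41) between locations in the media, 0.18 (SE 0.67) between layers at the BA and -0.67 (SE 0.55) between layers at the BT. Each of these 4 terms lay within 2 SE of 0, and none was called.

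The layers were compared over all 16 libraries, 8 pairs of intima and media from the same rabbit and location. PFKP was the only pathway gene called, lower in the intima (1 of 38 by edgeR, against 7.17% of all genes), with a log2 difference of -0.92 (SE 0.19, q = 0.00946). Intima and media values of PFKP were 502 and 457, 299.5 and 767, 311 and 535, and 325 and 581 CPM at the BA of rabbits 3 to 6. At the BT they were 214 and 959.5, 373 and 809, 243 and 504, and 286 and 343 CPM. The media was higher in 7 of 8 pairs, and the BA of rabbit 3 was the exception. With rabbit as a block, the difference was -0.92 with q = 0.00812, and 8.99% of all genes were called. Without rabbit 5 or rabbit 6 it was no longer called (q = 0.144 and 0.0883).

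At an unadjusted p under 0.05, 4 pathway genes passed between the layers (20.8% of all genes), all lower in the intima. Beside PFKP these were IDH2 (log2 difference -0.44, SE 0.16, edgeR q = 0.127), ACO1 (-0.58, SE 0.25, q = 0.195) and SUCLG1 (-0.36, SE 0.16, q = 0.228). SUCLG1, a subunit of succinyl-CoA synthetase, was lower in the intima in 8 of 8 pairs, with log2 ratios of -0.69 to -0.12, and IDH2 and ACO1 in 7 of 8. DESeq2 called PFKP and IDH2 (q = 0.0439), 2 of 38, beside 13.2% of all genes. The median of the pathway genes was -0.05, beside 0.09 for all genes; scaling by library size alone moved these to 0.18 and 0.31.

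On the intimal side no pathway gene passed. In 6 of 8 pairs PDK4 was higher in the intima, at log2 ratios of 1.27 to 2.04, and lower in both pairs of rabbit 5, at -4.35 and -2.47 (fitted difference 1.14, SE 0.58, edgeR q = 0.289). Without rabbit 5 the difference was 1.91 (q = 0.0263), and without rabbit 6 it turned to -0.83 (q = 0.273). PFKFB2, TPI1, GAPDH and OGDH were higher in the intima in 5, 5, 5 and 6 of 8 pairs. ENO2, on the medial side, varied widely between pairs (mean -1.18, SD 2.13; fitted difference -2.09, SE 1.11, q = 0.317).

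**Figure D5:**
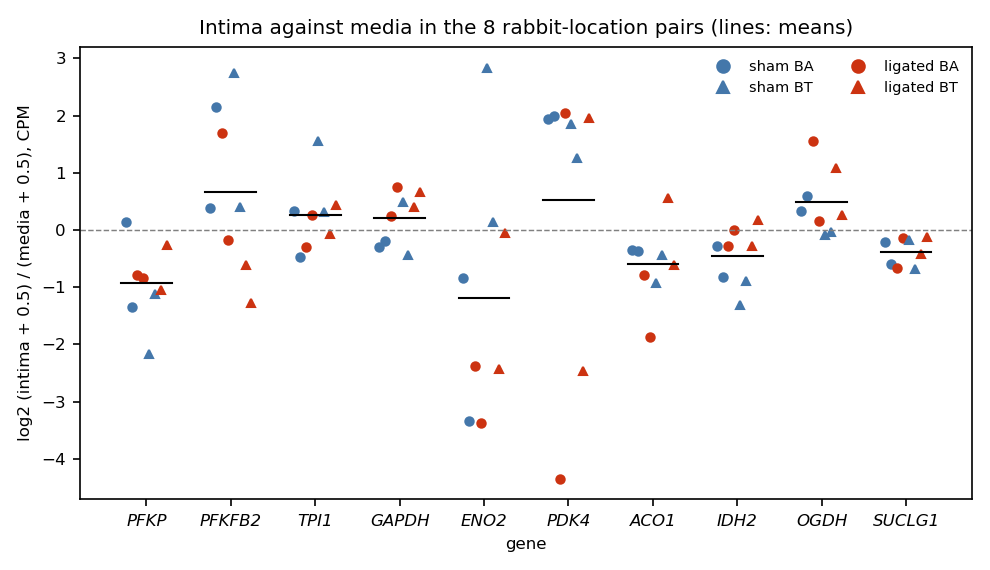
Log2 ratio of intima to media (CPM with 0.5 added) for the 5 pathway genes with the smallest q on each side, in the 8 pairs of the same rabbit and location, by flow state (colour) and location (symbol), with lines at the means. PFKP lies below 0 in 7 of 8 pairs, SUCLG1 in 8 of 8, and PDK4 above 0 in all pairs but the 2 of ligated rabbit 5.

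Isozyme ratios were also set against each other in the 8 pairs, which came from 4 rabbits. The exact sign-flip test treats the BA and BT pairs of 1 rabbit as independent. With 4 rabbits as the units, its smallest possible p is 0.125. LDHA to LDHB favoured the intima in 5 of 8 pairs, by a mean of 0.38 on the log2 scale (SD 0.69, exact sign-flip permutation test, two-sided p = 0.148, adjusted p = 0.391). PFKM to PFKP was higher in 6 of 8 pairs, by 0.62 (SD 1.19, exact p = 0.195, adjusted p = 0.391). HK1 to HK2 and PDK4 to PDK2 differed by 0.07 and -0.15 (exact p = 0.883 and 0.922, each with an adjusted p = 0.922). These are 4 of 7 planned ratios; the others had a gene with counts in fewer than 8 libraries or none.

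Between BT and BA, 0 pathway genes were called in the intima (0% of all genes) and 0 in the media (0.032%), and DESeq2 also called 0 in each. At an unadjusted p under 0.05, 3 passed in the intima (3.09% of all genes) and 4 in the media (5.03%). PDK4 in the media was at 22.5, 11.1, 83.3 and 59.2 CPM at the BA of rabbits 3 to 6 and at 73.5, 50.3, 204 and 64.7 CPM at the BT. The BT value was higher in each of the 4 rabbits (log2 difference 1.38, SE 0.39, edgeR q = 0.524). With rabbit as a block, PDK4 was called (1.31, SE 0.29, q = 0.0301), as were 0.555% of all genes. LDHA was likewise higher at the BT in the media of each rabbit (blocked 0.65, SE 0.18, q = 0.105).

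Neighbouring pathways were read from lists chosen with earlier results of these data known. Of the glucose and monocarboxylate transporters, 0 of 6 or 7 tested were called with ligation by edgeR, and 1 to 4 had an unadjusted p under 0.05 in a tissue. SLC2A1, the endothelial glucose transporter, was at 97.9 and 807 against 139 and 94.3 CPM in the BA intima and at 137 and 834 against 114 and 70.3 CPM in the BT intima, so that sham rabbit 4 stood alone. It was called between the layers, higher in the intima (log2 difference 1.90, SE 0.54, edgeR q = 0.0458). SLC16A1, a lactate and pyruvate carrier, was higher in ligated media at an unadjusted p of 0.0147 at the BA and 0.0256 at the BT (edgeR q = 0.228 and 0.232). SLC2A4, of the same list, lay below sham in each tissue, without a call.

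In the pentose phosphate pathway, which branches from glucose-6-phosphate, 0 of 3 or 4 tested genes were called by edgeR, and 1 or 2 had an unadjusted p under 0.05 in a tissue. PGD, its NADPH-making decarboxylating dehydrogenase, was at 156 to 334 CPM in the 8 sham libraries and 51.7 to 110.3 CPM in the 8 ligated ones, with no overlap. The log2 fold changes were -1.92 and -1.64 in BA and BT intima and -2.06 and -1.60 in BA and BT media (edgeR q = 0.486, 0.281, 0.0648 and 0.0539). TKT, the transketolase that returns carbon to glycolysis, was above sham in each tissue, with 56.7 and 62.8 against 124 and 85.4 CPM in the BA media and 73.5 and 114 against 234 and 220.3 CPM in the BT media. PGD was thus on the opposite side from TKT, GAPDH, PGK1, ENO3 and LDHA in all 4 tissues.

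Among 9 or 10 glycogen genes, UGP2, which makes UDP-glucose, rose in the BA media from 126 and 99.0 to 398 and 442 CPM (log2 fold change 1.92, SE 0.33, edgeR q = 0.0481). PPP1R3C, a glycogen-targeting subunit of protein phosphatase 1, fell in the BT media from 106 and 185 to 31.5 and 24.1 CPM (-2.39, SE 0.45, q = 0.0181). Between the layers, 4 of 10 were called, beside 7.17% of all genes, all lower in the intima, among them PYGL and PYGB, the liver and brain glycogen phosphorylases. Of the 10 VSMC markers, 9 were called lower in the intima in the same comparison, and their part in the glycogen values was not tested. The UGP2 call was lost without any 1 of the 4 rabbits (q from 0.144 to 0.605), and that of PPP1R3C without rabbit 6 (q = 0.183). Both were also lost in the 16-library fit (q = 0.0582 and 0.485). PYGB and PYGL lay below sham in each tissue, without a call.

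Of 10 metabolic transcription factors, EPAS1, which encodes the endothelial hypoxia-inducible factor HIF-2 alpha, rose in the media at both locations. It went from 1019.8 and 1053 to 5116 and 3922 CPM at the BA (log2 fold change 2.14, SE 0.26, edgeR q = 0.0176) and from 2183 and 3015 to 9341 and 5676 CPM at the BT (1.54, SE 0.33, q = 0.0339). The intima values also lay apart, at 907 and 1720.3 against 5231 and 3782 CPM at the BA and 491 and 2294 against 6142 and 4826 CPM at the BT, without a call (q = 0.734 and 0.393). The call at the BA was lost without any 1 rabbit (q from 0.144 to 0.385), and at the BT without rabbit 5 (q = 0.243) or rabbit 6 (q = 0.0636). The 16-library fit called neither (q = 0.126 and 0.304). HIF1A, named after its values were seen, was above sham in each tissue as well.

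Known HIF target genes outside the pathway were read in the same way. Of 15 tested, 0 were called in the 4 comparisons with ligation, 0 to 2 passed upward and 0 to 2 downward at an unadjusted p under 0.05, and their median log2 fold changes were -0.48 and -0.32 in the intima and -0.26 and 0.27 in the media (BA before BT). Ligated values lay wholly above sham for 1, 2, 3 and 6 of the 15, in that order, beside 15.4%, 20.4%, 21% and 25.4% of all genes. They lay wholly below for 5, 5, 4 and 4, beside 20%, 25.6%, 26% and 23.1%. BNIP3L, a mitophagy receptor, was at 85.8 and 98.6 CPM in sham and 21.1 and 33.3 CPM in ligated BA media (q = 0.161). DDIT4, an inhibitor of mTORC1 signalling, was higher in ligated BT media by 2.81 on the log2 scale (SE 0.85, edgeR q = 0.117). Of the mitochondrial pyruvate entry genes, 0 of 4 were called (at most 1 with an unadjusted p under 0.05 in a tissue), and MPC1, a subunit of the pyruvate carrier, was above sham in each tissue. The 2 TCA subunits outside the symbols used here, DLST and SDHA, overlapped or lay below sham. Of 6 gluconeogenic and side-step genes, 0 were called with ligation (at most 1 with an unadjusted p under 0.05 in a tissue). Between the layers BPGM, the bisphosphoglycerate mutase of red cells, was higher in the intima (log2 difference 1.92, SE 0.40, edgeR q = 0.00946), beside calls for 7.17% of all genes. Erythroid markers summed to 3.78 to 731 CPM in the intima and 2.03 to 52.5 CPM in the media. Their part in the BPGM difference was not tested.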

How the data were processed

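RNA was amplified with SMART-Seq v4 and libraries were made with Nextera kits, which do not mark strand. The authors aligned reads to the rabbit genome OryCun2.0 with STAR, discarded reads that mapped to more than 1 place and counted exonic reads with featureCounts 1.6.2 in a strand-specific setting (-s 2), and the deposited values are these raw counts per gene. Reads from a gene and its antisense partner cannot be told apart, and reads shared with near-identical pseudogenes, which GAPDH, LDHA, PGK1 and others have in mammals, are dropped, so their levels are uncertain. A row without a gene name, with 13.8 to 18.7% of counts, was left out.

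Genes with a mean above 1 CPM in at least 1 group were tested with edgeR 4.0.16 (TMM, quasi-likelihood F test, Benjamini-Hochberg q over all genes tested) in R 4.3.3, in a separate fit of 4 libraries for each tissue, of 16 for the layers and of 8 for locations and interactions. DESeq2 1.42.0 was an alternative. The script was tested on simulated counts. Each SE is the absolute log2 fold change divided by the square root of the F statistic, so it approximates a standard error. A fold is the ratio of mean CPM. A count of 0 was bounded at 3 counts. Counting intervals are not given, since replicate spread exceeded counting error (chi-square per degree of freedom of at least 22.5 in each group).

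The members and lists were chosen with earlier results of these data known. Members picked for naming were those called with ligation, the 2 with the smallest p in each direction, and the 5 with the smallest q on each side of the layers. Values in every library of a tissue are given for most of these, and the rest have only a range, a count of pairs or a summary. Other members may be named. From the lists, genes called with ligation are named. The other list genes named are mostly among the 2 with the smallest p in a comparison, and not all of those are named. The settings tried were other scalings, no filter, DESeq2, a 16-library fit, a rabbit block and leaving out each rabbit. Layer and location comparisons use the same rabbits, which the labels name, so rabbit pairs them (correlation of deviations -0.03 to 0.39, above 0.1 in 4 of 12). Without the block, p-values treat libraries of 1 rabbit as independent. All 40 members matched the RefSeq gene table by symbol, and its coordinates, of another assembly, were not used. 1 member entered the counts but is not reported here.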

Additional observations from a re-analysis of the deposited data

Results flagged for a closer look

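TPI1, the triose phosphate isomerase, stood apart in 1 of the 8 intima and media pairs. In sham BT of rabbit 3 its log2 ratio of intima to media was 1.56 (310.4 CPM in the intima and 105 CPM in the media), whereas the other 7 pairs lay between -0.48 and 0.43. It was found by a test for a value far from the rest of its group, run on 14 groups of 8 pairs; chance flags about 1 in 20 such groups.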

How the results depend on the processing

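With 2 rabbits a group, counts of called pathway genes depended on the setting, and the cause was not tested. With ligation, testing every gene with a count gave 1 call in BT intima, 4 in BA media and 6 in BT media, beside 3.12%, 4.89% and 5.32% of all genes. DESeq2 gave 4, 4 and 5, in that order, beside 6.61%, 5.77% and 6.76% of all genes. The 16-library fit gave 1 in BT intima and 0 in BT media, where it called 77 and 20 of 10077 genes. DESeq2's size factors gave 1 in BA media (LDHA, edgeR q = 0.0497), where 82 of 8795 genes were called. Leaving out each rabbit in turn gave 0 to 5 calls in BT media (4 without rabbit 3, 5 without rabbit 4, 0 without rabbit 5 or 6) and 0 to 1 between the layers (0 without rabbit 6, and PDK4 in place of PFKP without rabbit 5). A rabbit left alone in its group is then assumed to vary like the other group. Between the layers, every gene with a count and DESeq2 each gave 2, beside 10.2% and 13.2% of all genes. Between locations in the media, every gene with a count gave 1 and the replicate block (rabbit) 1, PDK4 in both; the block changed no other call of a pathway gene.

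Of the single genes, PDK4 turned between the layers, to -0.83 without rabbit 6 and 1.91 without rabbit 5. In the isozyme ratios, HK1 to HK2 ranged from -0.34 (without rabbit 5) to 0.50 (without rabbit 3) when 1 rabbit was left out. PDK4 to PDK2 turned to 0.00106 with 1 added to each count and ranged from -1.41 (without rabbit 4) to 1.27 (without rabbit 5) when 1 rabbit was left out. The median of the pathway genes in BT intima was 0.93 without rabbit 3. LDHA was higher in ligated BT media under every setting run (log2 fold change 1.501 to 1.82). With 2 ligated and 2 sham rabbits, the spread between animals limits every comparison with ligation. HK3, PFKFB4 and ALDOC each had a count in only 2 libraries and PDK2 at most 67 counts, which limits what can be said of them.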
